A study of Oryza sativa with 6 samples.

Results

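Pathogenesis-related proteins are secreted or cytosolic proteins whose genes plants switch on during defence against microbes and under some abiotic stresses. PR1 proteins are small secreted proteins long used as markers of defence, PR10 proteins are small cytosolic proteins, thaumatin-like PR5 proteins include antifungal members, and chitinases cut the chitin of fungal cell walls. Here 9 such rice loci, fixed by a list of locus numbers, were followed through an array study of roots under copper and cadmium. They comprise 2 PR1, 4 PR10, 1 thaumatin-like PR5 and 2 chitinase loci among 23414 genes tested, and were read by 22 of the array's probes, all kept by the filter on dim probes. The classes are those given with the list, set against the locus numbers from general knowledge of rice. The probe names on the array give a locus number, a sequence identifier and a region, and no gene name. The reference gene table matched 0 of the 9 numbers. The sequence identifiers were not looked up, so no individual gene name is given and no locus was checked against an annotation.

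Roots of 6-day-old seedlings of the rice cultivar TN-67 were exposed to 5 µM copper (3 arrays), to 25 µM cadmium (3 arrays) or to water. Every array carried treated-root RNA in the red dye Cy5 and water-root RNA in the green dye Cy3, so it measured the ratio of treated to water roots. The design counts 3 water replicates beside 6 arrays, and the 2 metals may thus rest on common control RNA. How long the roots were exposed is not stated in the labels. The doses differ between the metals, so a difference between them is one between these 2 treatments. In whole roots, fewer cells of a type and less RNA per cell cannot be told apart.

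Copper replicate 1 and cadmium replicate 1 each lay on a slide of its own, and the other 4 arrays, 2 of each metal, shared a slide. Across 22599 genes the log2 ratios of copper replicates 2 and 3 correlated at 0.964, and those of copper replicate 1 with them at 0.811 and 0.840. Cadmium replicates 2 and 3 correlated at 0.950, and cadmium replicate 1 with them at 0.826 and 0.802. Results below are given with all arrays and, where it matters, with the shared slide alone. Dyes were not swapped, so in each comparison with water dye and metal cannot be told apart. A constant dye effect cancels between the metals.

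The first comparison asked which of these defence loci changed in copper-treated roots. Of the 9 loci, 8 were higher with copper (limma, adjusted p under 0.05), against 25.4% of all genes tested. None was lower (0 also at an unadjusted p under 0.05), against 17.5% of all genes, and 42.9% of all genes passed in either direction. All 4 PR10 loci, 1 of the 2 PR1 loci, the PR5 locus and both chitinase loci rose. The median log2 change was 1.37 over the 9 loci and 0.02 over all genes. The count was 5 without copper replicate 2 and also 5 without copper replicate 3, and 8 with the arrays of the shared slide alone. Calls over all genes, in either direction, were 6591, 5761 and 13526 in these fits, against 10044 with all arrays.

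**Figure D1:**
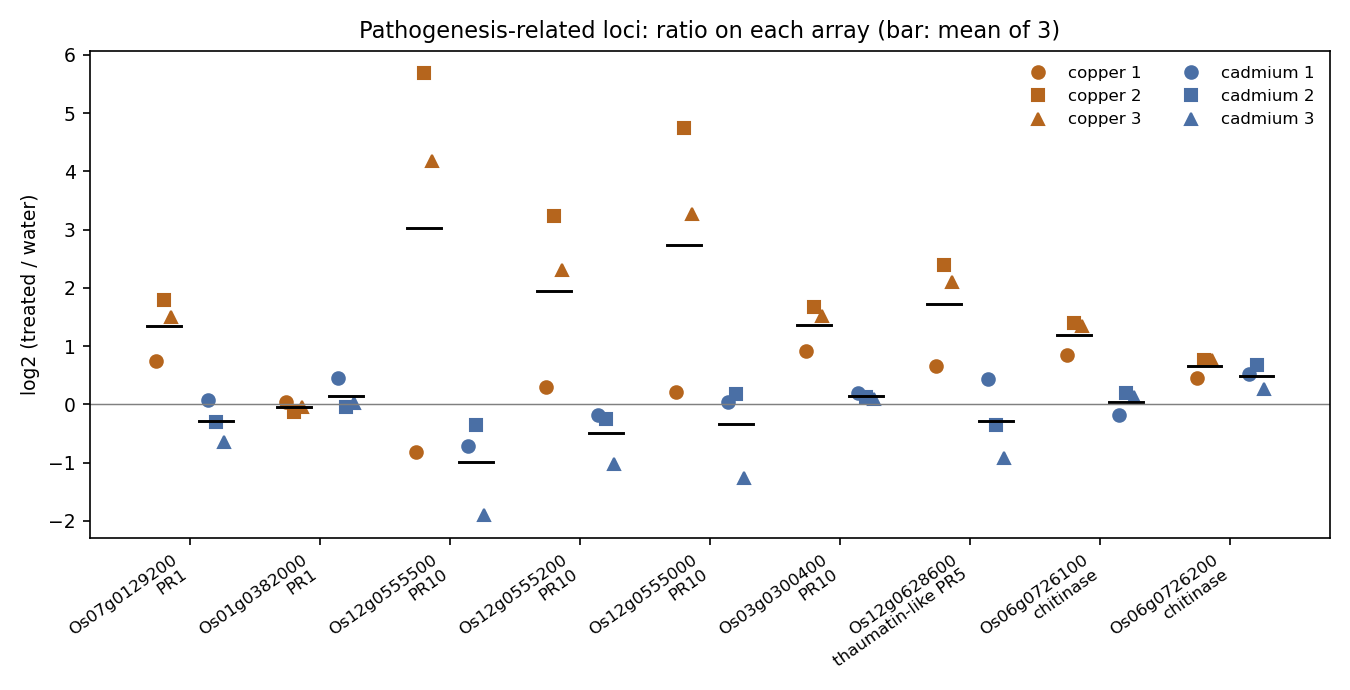
Log2 ratio of treated over water roots on each array for the 9 loci (vertical axis), with copper left of cadmium at each locus; bars are means of 3 arrays. For 6 loci all 3 copper points lie above all 3 cadmium points, and the 3 chromosome 12 PR10 loci show the lowest copper point, copper replicate 1, far below the other copper points.

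The chromosome 12 PR10 loci Os12g0555500, Os12g0555200 and Os12g0555000 had, by their tested probes, the largest copper values of the list and the largest spread. The treated signal of Os12g0555500 was 1444, 9502 and 2985 intensity units on copper arrays 1, 2 and 3, against water signals of 2543, 184 and 164. Its ratios were therefore 0.568, 51.7 and 18.2, with copper replicate 1 on the other side of 1. The mean log2 ratio was 3.02 ± 3.41 (SD, n = 3, limma adjusted p = 0.0474), rank 150 of 23414 genes. The call was lost in 13 of 22 alternatives. The log2 value was 1.68 without copper replicate 2 (adjusted p = 0.255), 2.44 without copper replicate 3 (0.210) and 4.94 without copper replicate 1 (0.000177). Leaving out a cadmium array, which shares the estimate of spread, gave adjusted p between 0.0553 and 0.0723. The other 8 losses, over processing, filter, probes, slide and copper arrays alone, had adjusted p between 0.0527 and 0.0971.

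Os12g0555000 showed the same division of the copper arrays. Its treated signals were 1494, 11415 and 6272 units on copper arrays 1, 2 and 3, against 1284, 423 and 654 units in water roots. The ratios were 1.16, 27.0 and 9.59, all above 1. The mean log2 ratio was 2.74 ± 2.31 (SD, n = 3, limma adjusted p = 0.0179).

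Os12g0555200 had the smallest mean change of these 3 loci. Its treated signals were 278, 1275 and 731 units, against 226, 135 and 147 units in water roots. The ratios were 1.23, 9.45 and 4.97, and the mean log2 ratio was 1.95 ± 1.51 (SD, n = 3, limma adjusted p = 0.0123). Without copper replicate 2 or 3 the calls of Os12g0555200 (adjusted p = 0.0663 and 0.0739) and Os12g0555000 (0.0960 and 0.0952) were lost, and the log2 value of Os12g0555000 was 1.74 without copper replicate 2.

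The 3 loci have 2 probes each, and 5 of these 6 probes were higher with copper after adjustment over all kept probes. The second probe of Os12g0555500 gave a log2 change of 2.35 (limma adjusted p = 0.0556). Across the 6 probes the log2 ratios lay between -0.82 and 0.36 on copper replicate 1, between 3.09 and 5.69 on replicate 2 and between 2.06 and 4.18 on replicate 3. The low values of copper replicate 1 are thus not those of a single spot. The probe sequences are not in the sources used here, and whether the probes of these loci also read one another's transcripts was not tested.

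**Figure D2:**
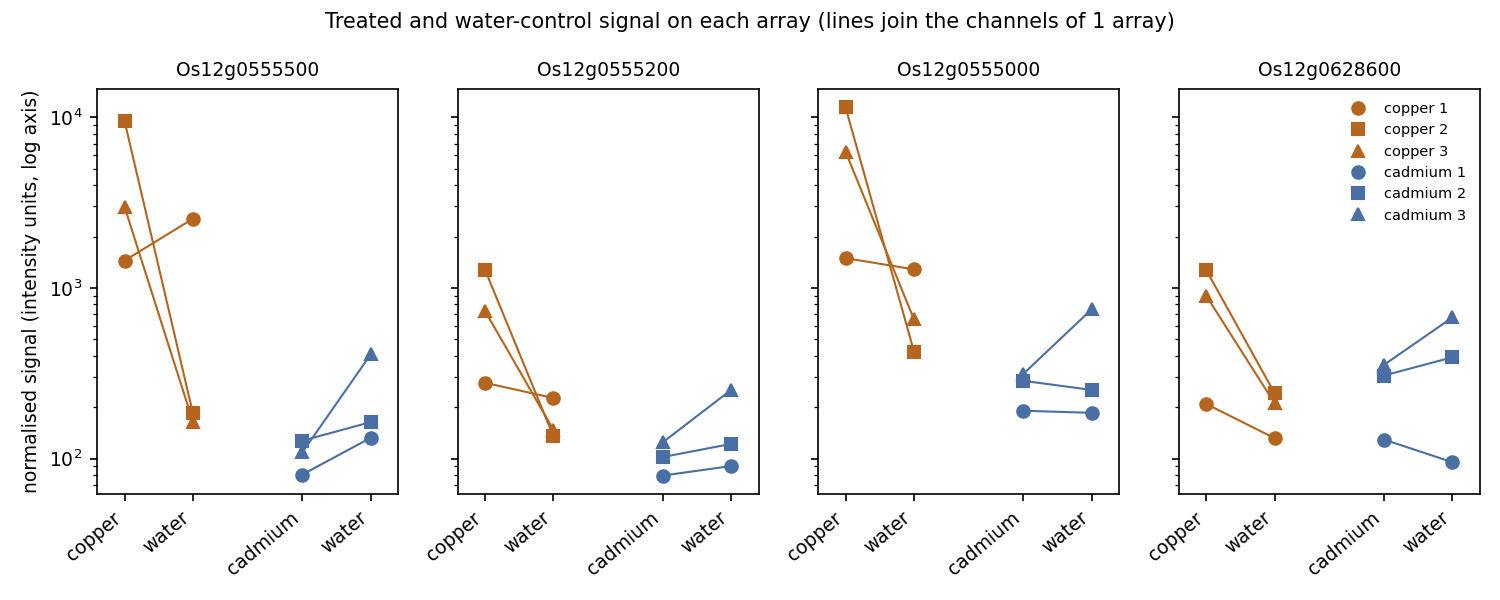
Normalised signal (log axis, intensity units) of the metal-treated and water channels for 3 PR10 loci and the PR5 locus, with a line joining the channels of each array. The water channel of Os12g0555500 stands at 2543 on copper replicate 1 and between 132 and 408 on the other arrays.

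At Os12g0555500 and Os12g0555000 part of this division lay in the water channel. By the tested probes, the water signal of Os12g0555500 on copper replicate 1 was 15.5 times the median of the other 5 water channels. That of Os12g0555000 was 3.03 times. For Os12g0555200 it was 1.68 times, and for the PR5 locus Os12g0628600 it was 0.544 times, below the other arrays' median. Over all genes, 4.31% had a water signal on copper replicate 1 more than 4 times that median. By its tested probe, the treated signal of Os12g0555500 on the same array, 1444 units, was below those of the other copper arrays. It was above all 3 cadmium-treated signals, which were 80.6, 127 and 109. Its second probe read 2778 treated units on copper replicate 1, between 3246 on replicate 2 and 1016 on replicate 3. That probe's water signal was 4879 units on copper replicate 1, against 106 to 188 on the other arrays. The second probe of Os12g0555000 read 1068 water units on copper replicate 1, against 123 to 225 on the other arrays. Of the 9 loci, 4 had a log2 ratio on copper replicate 1 at least 1 unit below both other copper arrays, against 0.774% of all genes. These 4, by their tested probes, were the chromosome 12 PR10 loci and the PR5 locus. The median SD over the copper arrays was 0.14 over all genes and 0.54 over the 9 loci. Genes that rose as much as these loci were not counted apart. The unlisted locus Os07g0129300, with 1.84, 3.96 and 3.76 on copper arrays 1 to 3, was also at least 1 unit lower on replicate 1. The count leaves out 7 further probes of the chitinase locus Os06g0726200, described below, each of which was also at least 1 unit lower there. Their log2 ratios were 0.78 to 1.26 on copper replicate 1, 2.30 to 2.78 on replicate 2 and 2.22 to 2.64 on replicate 3. Copper replicate 1 also differs from the other copper arrays in slide, so slide and replicate cannot be told apart here.

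The PR10 locus on chromosome 3, Os03g0300400, was steadier. Its log2 ratios were 0.91, 1.67 and 1.51 on copper arrays 1 to 3. All 3 lay clearly above 0, and the mean was 1.37 ± 0.40 (SD, n = 3, limma adjusted p = 0.000191). The call held in all 22 alternatives tried, with values between 1.21 and 1.59, and its second probe gave 1.07.

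Of the PR1 loci, Os07g0129200 rose with copper and Os01g0382000 did not pass the test. The treated signals of Os07g0129200 were 8452, 21768 and 18987 units, against 5024, 6285 and 6707 units in water roots. Every copper array had the higher signal in treated roots, and the mean log2 ratio was 1.35 ± 0.54 (SD, n = 3, limma adjusted p = 0.00148). Its second probe gave 1.35 as well. The log2 ratios of Os01g0382000 were 0.05, -0.13 and -0.05, with a mean of -0.04 ± 0.09 (SD, n = 3, limma adjusted p = 0.765). Only 1 of the 3 copper arrays had a water signal well above background, so a change at this locus was poorly measurable.

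The thaumatin-like PR5 locus Os12g0628600 rose with copper. Its treated signals were 209, 1276 and 902 units, against 132, 242 and 211 units in water roots. The log2 ratios were 0.67, 2.40 and 2.09, with copper replicate 1 again the lowest. The mean was 1.72 ± 0.92 (SD, n = 3, limma adjusted p = 0.00565).

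The chitinase loci Os06g0726100 and Os06g0726200 are neighbours by number on chromosome 6. The log2 ratios of Os06g0726100 were 0.844, 1.402 and 1.347, with a mean of 1.20 ± 0.31 (SD, n = 3, limma adjusted p = 0.00026). Its second probe gave 1.07 and passed as well. Os06g0726200 has 8 probes, of which the brightest was tested by rule. That probe, the only 1 of the 8 named 5'UTR+CDS, had log2 ratios of 0.46, 0.76 and 0.76 and a mean of 0.66 ± 0.17 (SD, n = 3, limma adjusted p = 0.0018).

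The other 7 probes of Os06g0726200, named CDS+3'UTR, gave larger copper values. Their log2 changes lay between 1.79 and 2.14, and all 7 passed the test over all kept probes (limma adjusted p between 0.000481 and 0.00164). On copper replicate 1 their log2 ratios were 0.78 to 1.26, on replicate 2 they were 2.30 to 2.78 and on replicate 3 they were 2.22 to 2.64. The 5'UTR+CDS probe also stood apart in level. Its water signal was 48189 units on copper replicate 1 and 37409 on cadmium replicate 1, against 1159 to 4824 on the 4 arrays of the shared slide. Its treated signals divided in the same way, with 66291 and 53952 units on those 2 arrays and 1505 to 7726 on the others. The arrays with the high signal are the 2 on slides of their own, and the cause was not tested. Both readings of the locus are therefore given.

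**Figure D3:**
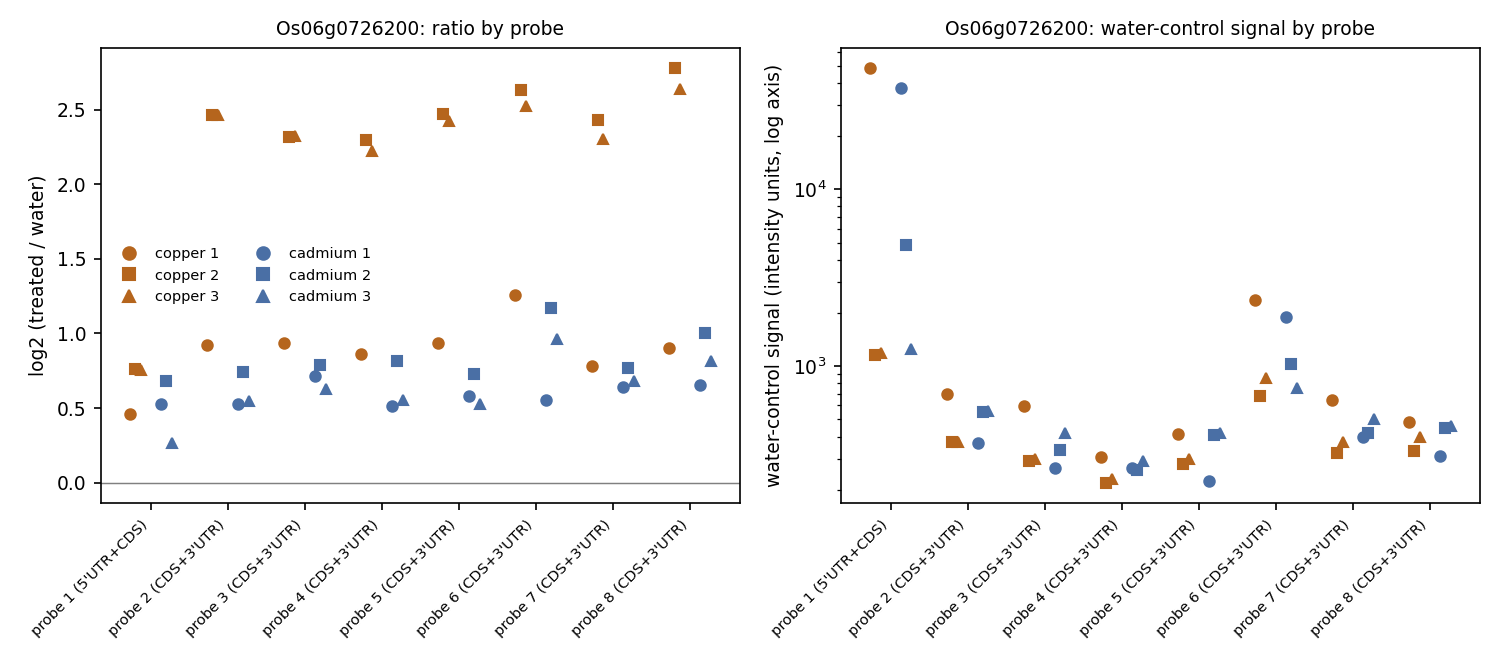
The 8 probes of the chitinase locus Os06g0726200: log2 ratio of treated over water roots on each array (left) and water-control signal in intensity units on a log axis (right). Probe 1 (5'UTR+CDS) lies below the other 7 in its copper ratios, and its water signal reaches 48189 and 37409 units on the 2 arrays outside the shared slide.

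Cadmium was then compared with water in the same way. Of the 9 loci, 1 was higher with cadmium, against 21.0% of all genes tested, and 8 did not pass. None was lower (limma, 0 also at an unadjusted p under 0.05), against 12.9% of all genes, and 34.0% of all genes passed in either direction. The locus that rose was Os06g0726200. The median log2 change was -0.28 over the 9 loci and 0.01 over all genes. For the 8 loci that did not pass, the standard errors ran from 0.11 to 1.03. At Os12g0555500 a mean of -0.995 did not pass, so sizeable changes could be missed. The spread of a locus was estimated over copper and cadmium arrays together. At Os12g0555500, Os12g0555200 and Os12g0555000 the standard errors were 1.03, 0.468 and 0.722. With the cadmium arrays fitted alone they were 0.284, 0.175 and 0.278, and Os12g0555500 passed (limma adjusted p = 0.0480). Without copper replicate 1 they were 0.348, 0.212 and 0.342, and none of these loci passed.

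The tested probe of Os06g0726200 had log2 ratios of 0.53, 0.68 and 0.27 on cadmium arrays 1 to 3, with a mean of 0.49 ± 0.21 (SD, n = 3, limma adjusted p = 0.00919). Its 7 other probes lay between 0.61 and 0.89, and 1 of them passed over all kept probes. The call was lost in 6 of 22 alternatives, among them without cadmium replicate 2 (adjusted p = 0.0679), when slide entered as a random block (0.0543) and with the authors' series table (0.104). With the scanner's processed signals median centred it was lost as well (0.0899), and the 1 locus called higher was then Os01g0382000 (0.76, limma adjusted p = 0.0413).

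The PR10 loci had no call with cadmium. For Os12g0555500 the treated signals were 80.6, 127 and 109 units, against 132, 164 and 408 units in water roots. All 3 ratios were below 1, at 0.609, 0.778 and 0.267, and the mean log2 ratio was -0.995 ± 0.81 (SD, n = 3, limma adjusted p = 0.486). For this locus and for Os12g0555200, 2 of the 3 cadmium arrays had a treated signal well above background. Os12g0555200 had log2 ratios of -0.19, -0.26 and -1.02, and Os12g0555000 had 0.04, 0.18 and -1.26. In both, cadmium replicate 3 was the lowest array and the others lay closer to 0. Os03g0300400 had 0.19, 0.13 and 0.09, a narrow set with a mean of 0.14 ± 0.05 (SD, n = 3, limma adjusted p = 0.466).

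The remaining loci also did not pass with cadmium. Os07g0129200 had log2 ratios of 0.08, -0.31 and -0.65, and Os01g0382000 had 0.46, -0.05 and 0.02. The PR5 locus Os12g0628600 had 0.44, -0.35 and -0.92, and the chitinase locus Os06g0726100 had -0.19, 0.19 and 0.13. The arrays of each of these 4 loci lay on both sides of 0. Cadmium replicate 3 was the lowest cadmium array for 7 of the 9 loci, the 3 chromosome 12 PR10 loci among them. The share over all genes was not computed. With the 4 arrays of the shared slide alone, 4 loci were lower with cadmium. They were Os07g0129200 with -0.48 (limma adjusted p = 0.00375), Os12g0628600 with -0.64 (0.00272), Os12g0555500 with -1.14 (0.0286) and Os12g0555200 with -0.64 (0.0317). In that fit the spread comes from 2 arrays per metal on 1 slide, and these falls were not called with all 6 arrays. Over all genes 11240 were called there in either direction, against 7959 with all 6 arrays. With the 3 cadmium arrays fitted alone, Os12g0555500 was called lower (-0.995, limma adjusted p = 0.0480).

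The third comparison set copper directly against cadmium. Of the 9 loci, 4 were higher with copper than with cadmium, against 6.57% of all genes, and 5 did not pass. None was lower (limma, 0 also at an unadjusted p under 0.05), against 4.07% of all genes, and 10.6% of all genes passed in either direction. The 3 copper ratios lay above all 3 cadmium ratios at 6 of the 9 loci, against 16.6% of the genes measured on all 6 arrays. The reverse order, all cadmium ratios above all copper ratios, was seen at 15.7% of those genes. The median difference was 1.64 on the log2 scale over the 9 loci and -0.01 over all genes.

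The 4 loci called were of 4 classes. The PR1 locus Os07g0129200 differed by 1.64 ± 0.29 (SE, limma adjusted p = 0.0106), and the chromosome 3 PR10 locus Os03g0300400 by 1.23 ± 0.19 (SE, adjusted p = 0.00693). The chitinase locus Os06g0726100 differed by 1.16 ± 0.18 (SE, limma adjusted p = 0.00675). The PR5 locus Os12g0628600 differed by 2.00 ± 0.49 (SE, limma adjusted p = 0.0400). The call of the PR5 locus was lost in 9 of 22 alternatives: with the replicate number as a block (adjusted p = 0.0621), without copper replicate 2 or 3 or cadmium replicate 2 or 3 (0.121 to 0.139), and in 4 other ways of processing the signals (0.0513 to 0.0766).

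The chromosome 12 PR10 loci had the largest differences of the list and did not pass with all 6 arrays. The difference was 4.02 ± 1.46 (SE) at Os12g0555500, 3.09 ± 1.02 at Os12g0555000 and 2.44 ± 0.66 at Os12g0555200, with limma adjusted p of 0.130, 0.101 and 0.0567. Without copper replicate 1 they were 5.93, 4.35 and 3.26, with adjusted p of 0.00104, 0.00318 and 0.00158. Within the shared slide they were 6.07, 4.55 and 3.42, with adjusted p of 3.5e-05, 0.000159 and 4.11e-05. Called loci numbered 7 in each of these fits, against 4 with all arrays. Calls over all genes rose too, to 3040 without copper replicate 1 and 6077 within the shared slide, against 2492 with all arrays. With the replicate number as a block, Os12g0555200 passed (limma adjusted p = 0.0488) at the same difference.

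**Figure D4:**
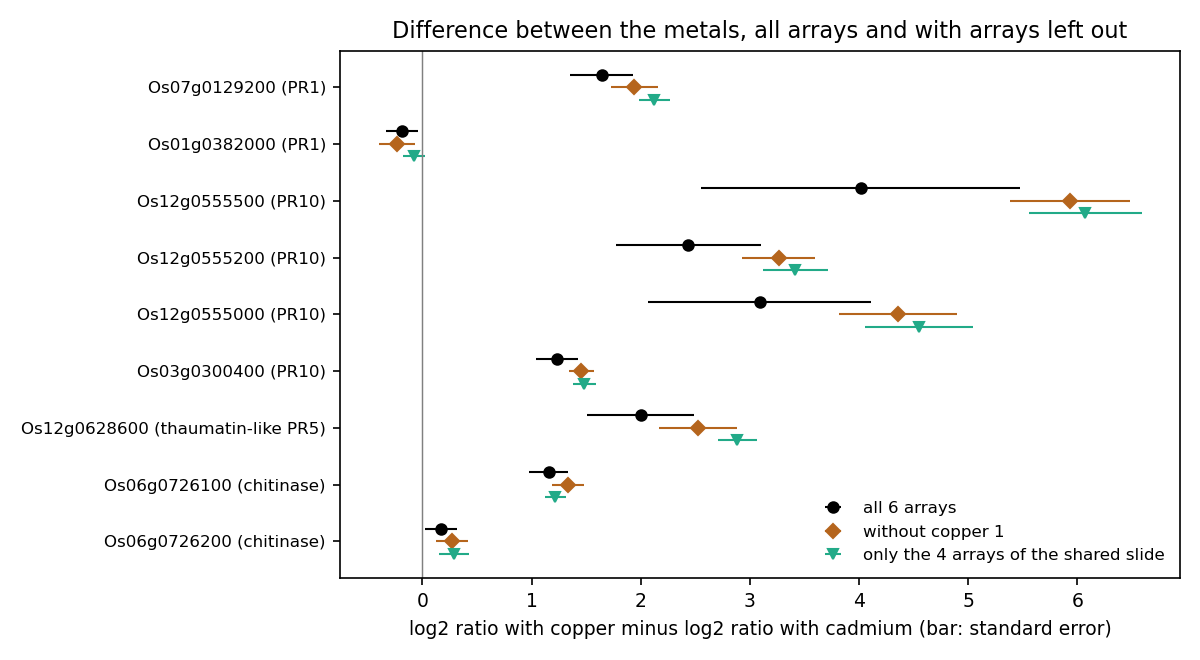
Log2 ratio with copper minus log2 ratio with cadmium at each locus, with standard errors, for all 6 arrays, without copper replicate 1, and for the 4 arrays of the shared slide. The chromosome 12 PR10 loci move most, for example from 4.02 with all arrays to 6.07 on the shared slide at Os12g0555500.

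Os01g0382000 (-0.19 ± 0.15, SE) and the tested probe of Os06g0726200 (0.17 ± 0.15, SE) did not pass between the metals (limma adjusted p = 0.498 and 0.526). The 7 CDS+3'UTR probes of Os06g0726200 gave differences of 1.14 to 1.35 with adjusted p between 0.0642 and 0.118 over all kept probes. None of its 8 probes passed at 0.05 (limma).

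Loci with neighbouring numbers were compared, since the listed PR10 loci on chromosome 12 lie close together. Within 1000 in number of a listed locus the array holds 66 other loci, of which 52 were tested. With copper 19 of these rose and 12 fell, against 25.4% and 17.5% of all genes. With cadmium 14 rose and 3 fell, against 21.0% and 12.9% of all genes. The median log2 changes of the neighbours were 0.15 with copper and 0.09 with cadmium. Around the chromosome 12 PR10 loci 14 neighbours were tested, of which 5 rose and 4 fell with copper. Around the PR1 locus Os07g0129200 6 were tested, of which 4 rose and 0 fell with copper (limma), and around Os01g0382000 neither of the 2 tested passed. Of the neighbours, 3 of 11 rose and 3 fell with copper around Os03g0300400, 3 of 7 rose and 2 fell around Os12g0628600, and 4 of 12 rose and 3 fell around the chitinase loci.

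Between the chromosome 12 PR10 loci, Os12g0555300 had log2 ratios of -0.34, 5.18 and 3.68 on copper arrays 1 to 3 and of 0.05, 0.36 and -0.98 on cadmium arrays 1 to 3. It rose with copper by 2.84 ± 0.87 (SE, limma adjusted p = 0.0320), with copper replicate 1 again on the other side of 0. Its other tested neighbour within the cluster, Os12g0555100, had -1.93, 1.80 and 0.34 with copper and did not pass (limma adjusted p = 0.930). Both loci were lowest on copper replicate 1 among the copper arrays. At the lower-numbered side of the cluster Os12g0554800 fell by 0.71 with copper (limma adjusted p = 0.000179) and by 0.48 with cadmium (adjusted p = 0.00182).

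**Figure D5:**
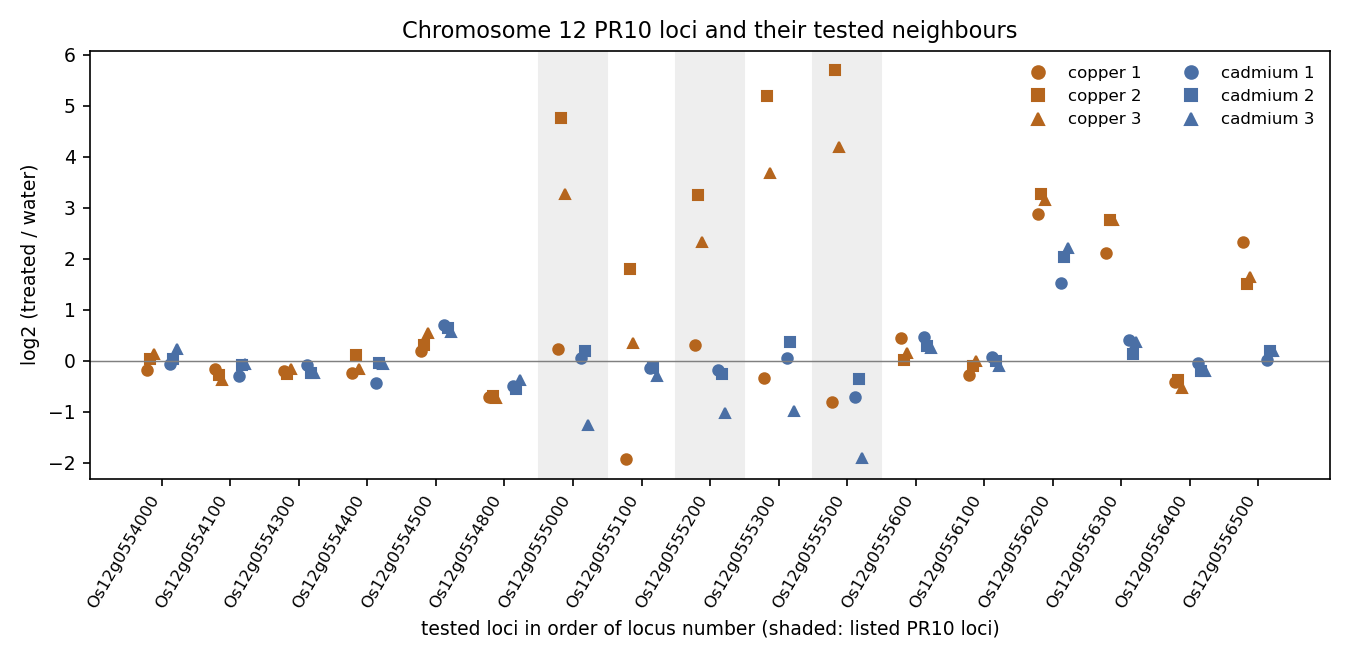
Log2 ratio of treated over water roots on each array for the tested loci around the chromosome 12 PR10 loci, in order of locus number, with the 3 listed loci shaded. Os12g0555300, which is not listed, has copper points at -0.34, 5.18 and 3.68, in the same order of arrays as the listed loci beside it.

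Next to the PR1 locus Os07g0129200, the locus Os07g0129300 rose with copper by 3.19 ± 0.37 (SE, limma adjusted p = 0.000416). Its log2 ratios were 1.84, 3.96 and 3.76 with copper and 1.095, 0.59 and 0.34 with cadmium, without overlap, and the difference of 2.51 passed (limma adjusted p = 0.0222). Next to the chitinase loci, Os06g0726300 rose with copper by 1.32 ± 0.21 (SE, limma adjusted p = 0.002) and had 0.39 with cadmium (adjusted p = 0.187). The other neighbours within 300 in number that passed a test had smaller values. With copper, Os03g0300600 rose by 0.96 and Os12g0628300 by 0.69, while Os03g0300300 fell by 0.42 and Os12g0628400 fell by 0.71. With cadmium, Os03g0300600 rose by 0.56, Os12g0628300 by 0.73, Os12g0555600 by 0.33 and Os03g0300700 by 0.32, and the last was lower with copper than with cadmium (-0.50, limma adjusted p = 0.0460). The files do not say what these neighbours encode.

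The profile most like each listed locus over the 6 arrays was found by Euclidean distance among 22590 other genes. Os12g0555300 was nearest both to Os12g0555000 (distance 0.88) and to Os12g0555500 (1.65). Os10g0569800 was nearest both to Os12g0555200 (0.66) and to the PR5 locus Os12g0628600 (0.85). Of the steadier loci, Os03g0300400 lay nearest to Os01g0794800 (0.29), Os06g0726100 to Os06g0225300 (0.16) and Os07g0129200 to Os02g0275200 (0.40). Os01g0382000 lay nearest to Os10g0103800 (0.11) and Os06g0726200 to Os05g0197200 (0.18). Each locus was read by its tested probe alone, and no search was run for the CDS+3'UTR probes of Os06g0726200, whose copper values were larger. The next nearest was Os04g0179100 for both Os12g0555000 (1.70) and Os12g0555500 (3.52). The listed loci Os12g0555000 and Os12g0555200, left out of that search, lay at 2.02 and 3.44 from Os12g0555500. Next nearest for the other loci were Os10g0416500 for Os12g0555200 (1.14), Os02g0582900 for Os12g0628600 (0.88) and Os05g0584200 for Os03g0300400 (0.29). For Os06g0726100 it was Os08g0450100 (0.24), for Os07g0129200 Os01g0823100 (0.45), for Os01g0382000 Os06g0289900 (0.14) and for Os06g0726200 osa-miR166h (0.24). Among the listed loci themselves the closest pair was Os03g0300400 and Os06g0726100, of different classes, at 0.51. These distances describe 6 arrays, and nothing is read from them about shared function.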

How the data were processed

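The members and lists were chosen with earlier results of these data known. The deposited spot intensity values are median brightnesses of spot and local background from Feature Extraction 10.7.1.1, per the file headers. That program's processed intensity was background-subtracted, detrended and dye-normalized, and its log10 ratio is Cy5 over Cy3, per the file headers. The authors' series table holds log2 ratios, treated over water: set against the scanner's ratios, its slopes were 1.000 to 1.001 over 42475 probes. Its column medians were -0.07, -0.16 and -0.19 on the copper arrays (1 to 3) and -0.05, -0.14 and -0.08 on the cadmium arrays (1 to 3). How it was centred stays unknown.

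Here, background was corrected with normexp (offset 50) and arrays normalized by loess, which assumes that most genes do not change. Spots marked as outliers, 0.137% to 2.85% per array, were left out; no spot of the listed loci was marked or saturated. A probe was kept where all 3 arrays of a metal read it well above background in 1 channel, with at least 2 values per metal (33685 of 42477). The probe of highest mean intensity stood for each gene. All 6 arrays were fitted together with limma 3.58.1 in R 4.3.3, two-sided, adjusted by Benjamini-Hochberg over 23414 genes. This main fit took the arrays as independent, while the correlation within a slide was estimated at 0.66 over 22599 genes. Channel signals are after Aquantile scaling, and levels are compared only within a probe. The number of arrays limits the precision, and the labels call the replicates biological. The fitting code was tested on simulated data.

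All 9 listed loci are named. Neighbours within 300 in number are named if called, as are the nearest profiles, and Os12g0555100 was named after its values were seen. Other genes of the pathway could not be listed, since the files hold no descriptions, and root markers were not checked for the same reason.

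Copper and cadmium arrays of one number deviated together from the group means, with correlations of 0.37, 0.24 and 0.27 for numbers 1, 2 and 3. The main fit held no pairing of the arrays, and a block for the replicate number was tried as an alternative. Numbers 2 and 3 also share a slide, and unlike numbers on it correlated nearly as much. The values were 0.23 for copper 2 with cadmium 3 and 0.19 for copper 3 with cadmium 2. Alternatives covered background, normalization, dim probes, choice of probe, slide, block and leaving out each array.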

Additional observations from a re-analysis of the deposited data

Results flagged for a closer look

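The water-control signal of the PR1 locus Os01g0382000 was 132 units on copper replicate 1 and 78.1 to 94.1 units on the other 5 arrays. On the log scale, the gap to the nearest other array was 0.646 of the whole range, above the 95% critical value of the Dixon test for 6 samples. Chance marks about 1 in 20 such groups, and 9 loci were examined. Only 3 of the 6 arrays read this water signal well above background.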

How the results depend on the processing

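Over all alternatives, 520 of 588 values of single loci kept their direction and their side of the threshold, 32 lost a call, 19 gained one and 17 changed sign, with no call on the alternative's side in any of the 17. Leaving out 1 array gave between 5 and 8 called loci with copper, 0 to 1 with cadmium and 3 to 7 between the metals. Calls over all genes in those fits ran from 5761 to 11656 with copper and from 4490 to 9007 with cadmium. The copper count was 7 with the processed signals, centred or not, the authors' series table, no background correction, the mean of the kept probes, the copper arrays alone or the slide as a random block, and 6 of the 7 loci left by the strictest filter on dim probes; in each of these the call of Os12g0555500 was lost. The cadmium count was 0 with the scanner's processed signals, the authors' series table, the mean of the kept probes and the slide as a random block (limma, 1 locus each at an unadjusted p under 0.05), 2 with only the arrays of cadmium (1 higher, 1 lower) and 5 with the shared slide alone (1 higher, 4 lower). Between the metals the count was 3 with the processed signals, centred or not, the authors' series table or no background correction, each time without Os12g0628600 (adjusted p = 0.0727, 0.0766, 0.0728 and 0.0513). It was 7 with the slide as a random block and with the shared slide alone. Calls over all genes were then 5877 and 6077, against 2492 in the main fit. With cadmium the shared slide alone called 11240 of all genes, against 7959 in the main fit. Slide as a fixed term gave the same values as the shared slide alone, since arrays on slides of their own then drop out. It is no separate result, though the 588 values and the alternatives of each metal difference count both. With the replicate number as a block the counts stayed at 8, 1 and 4, and the changed calls are given above. Read by its brightest CDS+3'UTR probe, chosen after seeing the data, Os06g0726200 left all 3 counts as they were. Signs changed only at loci not called in the comparison. With copper, Os01g0382000 was 0.0156 with the processed signals and with the authors' table, 0.15 with median centring of the processed signals, 0.0517 with no background correction and 0.0687 with the slide block. With cadmium, Os06g0726100 was -0.13 with the processed signals and with the authors' table, -0.0349 with these signals centred, -0.0430 with median centring in place of loess and -0.0937 with the slide block, and ran from -0.0328 to 0.156 as each cadmium array was left out. Os03g0300400 was -0.0155 with the slide block, and Os01g0382000 -0.0130 with the shared slide alone. As each cadmium array was left out, Os01g0382000 ran from -0.0130 to 0.238, Os12g0555000 from -0.608 to 0.109 and Os12g0628600 from -0.639 to 0.0431. With cadmium Os01g0382000 was also 0.665 with the processed signals and the authors' table. With the processed signals the median log2 change of all genes was -0.13 with copper and -0.11 with cadmium, against 0.02 and 0.01 in the main fit. The causes were not tested.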

Other observations

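Farther along chromosome 12 from the PR10 loci, 3 loci rose with copper on every array, and were picked out after their values were seen. Os12g0556200 had log2 ratios of 2.87, 3.27 and 3.14 with copper and 1.53, 2.04 and 2.20 with cadmium, and rose with both metals (limma adjusted p = 4.26e-06 and 4.38e-05). Os12g0556300 had 2.11, 2.76 and 2.75 with copper and 0.39, 0.14 and 0.35 with cadmium, and rose with copper alone among the comparisons with water. Os12g0556500 had 2.32, 1.49 and 1.64 with copper and 0.00, 0.18 and 0.18 with cadmium. Copper replicate 1 was the lowest copper array at the first 2 of these loci and the highest at the third. All 3 differed between the metals (limma adjusted p between 0.000565 and 0.00857). Such rises were not confined to this part of chromosome 12. By the chitinase loci, Os06g0725200 rose by 4.11 with copper and 3.57 with cadmium, and Os06g0725100 by 3.64 and 2.13. By the PR1 locus Os07g0129200, Os07g0129800 rose by 2.43 with copper and 0.78 with cadmium. These loci were likewise picked out after their values were seen.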
